A study of Mus musculus with 11 samples.

Results

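Toll-like receptors sense microbial products such as lipopolysaccharide and switch on the transcription factor NF-kB, and 10 genes that restrain this route were described here in dendritic cells from mouse spleen. They were chosen by name, with earlier results of these same arrays in view, and each was read by the only probeset that names that gene alone, so the 10 genes are 10 of the 22180 genes tested. Because the exposed against naive comparison was known when the genes were listed, their differences between these groups are a description. Where one of the 10 is said to be called, a fit over all genes placed it past a threshold, and this is not independent evidence that it differs. The labels give the C57BL/6 background for every array, while their shared protocol text also names CD11c.Cre and CD11c.Cre x C/EBPβ flox/flox mice without tying them to these arrays. The 6 naive arrays came from naive mice and the 5 exposed arrays from mice that had received Eµ-Myc lymphoma cells, B cell tumour cells whose Myc transgene is driven by the immunoglobulin heavy chain enhancer. In those spleens, tumour cells made up 10 to 36% of lymphocytes on average. The sort took CD11c+ MHC class II+ cells, with a stated purity of more than 95%. The labels give no age and do not say that each array had its own mouse, so p-values measure only the spread between these arrays.

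A bound Toll-like receptor gathers the adaptor Myd88 and kinases of the IRAK family, which lead to the IkB kinases. These mark the inhibitor IkBα for destruction, NF-kB enters the nucleus, and among the genes it induces are several of its own inhibitors. In dendritic cells this route drives cytokine production and maturation, and the brakes act at every step: at the membrane (Cd180, Ly86, Sigirr, Tollip, Irak3), on the lipopolysaccharide itself (Aoah), on ubiquitin chains (Tnfaip3, Tnip1) and on NF-kB (Nfkbia, Nfkbiz).

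Promoter sequence is shown for Irak3 and Aoah, which had the largest differences, and for Nfkbia, Tnfaip3 and Tnip1, in which a match to an NF-kB motif was found. Each run is the 250 bases before the gene's start from RefSeq (GRCm38.p6), read 5′ to 3′ on the gene's strand, and the first listed start was taken where there were several. Capitals mark matches, on either strand, to an NF-kB motif of GGG and TTCC with any 3 bases between them. Irak3 lies at chr10:120201598-120201847 on the minus strand, Aoah at chr13:20793863-20794112 on the plus strand, Nfkbia at chr12:55492648-55492897, Tnfaip3 at chr10:19015411-19015660 and Tnip1 at chr11:54962941-54963190, the last 3 on the minus strand.
Irak3: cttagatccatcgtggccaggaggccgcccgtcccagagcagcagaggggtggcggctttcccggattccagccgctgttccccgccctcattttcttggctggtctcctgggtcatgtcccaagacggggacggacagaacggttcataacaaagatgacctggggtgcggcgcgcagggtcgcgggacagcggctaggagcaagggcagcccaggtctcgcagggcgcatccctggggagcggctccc
Aoah: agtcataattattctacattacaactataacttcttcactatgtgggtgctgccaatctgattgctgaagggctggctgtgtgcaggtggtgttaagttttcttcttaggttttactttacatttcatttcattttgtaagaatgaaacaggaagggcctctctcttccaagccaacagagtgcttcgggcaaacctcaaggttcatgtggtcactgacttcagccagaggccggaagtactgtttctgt
Nfkbia: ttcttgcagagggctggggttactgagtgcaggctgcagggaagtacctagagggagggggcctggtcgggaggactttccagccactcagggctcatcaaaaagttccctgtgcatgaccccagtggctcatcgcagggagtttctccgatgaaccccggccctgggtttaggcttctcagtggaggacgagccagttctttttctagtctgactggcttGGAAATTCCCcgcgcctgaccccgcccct
Tnfaip3: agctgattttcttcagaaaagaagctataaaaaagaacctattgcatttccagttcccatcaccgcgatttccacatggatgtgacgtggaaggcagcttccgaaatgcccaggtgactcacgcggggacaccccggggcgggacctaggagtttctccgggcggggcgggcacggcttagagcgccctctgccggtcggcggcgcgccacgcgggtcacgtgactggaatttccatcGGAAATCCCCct
Tnip1: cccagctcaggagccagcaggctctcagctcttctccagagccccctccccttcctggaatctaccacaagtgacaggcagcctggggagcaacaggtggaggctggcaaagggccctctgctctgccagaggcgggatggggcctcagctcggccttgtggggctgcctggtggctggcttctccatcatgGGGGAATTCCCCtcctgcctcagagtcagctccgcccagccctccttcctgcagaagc
The match began 29 bases before the start of Nfkbia, 12 before that of Tnfaip3 and 58 before that of Tnip1, where matches on both strands overlap. Of the 8 genes with an entry, 3 had a match. With every listed start counted, 4 of their 11 windows had a match, and the motif is found in 4.65% of 32851 windows of the same length. The letters were not found in the windows of Irak3, Aoah, Tollip, Cd180 and Ly86. A match describes the letters and does not show that a factor binds there.

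Irak3 and Aoah had the largest differences between exposed and naive cells among the 10 genes. Irak3 was 1.75-fold and Aoah 2.07-fold higher, the latter against naive values that were near background on 5 of 6 arrays, Nfkbia, Tnfaip3 and Nfkbiz were 1.17- to 1.23-fold higher, and Cd180 and Ly86 were slightly lower. Tnip1 was 0.12 higher on the log2 scale, and the differences of Tollip and Sigirr were 0.04 and 0.0002. Fitted with limma over all genes and Benjamini-Hochberg adjustment, 2 of the 10 genes were called at an adjusted p under 0.05, both higher, where 1.42% of all genes were called (0.879% higher and 0.546% lower). With all arrays shifted to a common 75th percentile, the 195 higher and 121 lower calls over all genes became 168 and 223, and Irak3 and Aoah were still called. The median difference of the 10 genes was 0.18, and that of all genes was 0.008. Since the genes were listed with this comparison known, nothing is read from the count or the median.

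**Figure D1:**
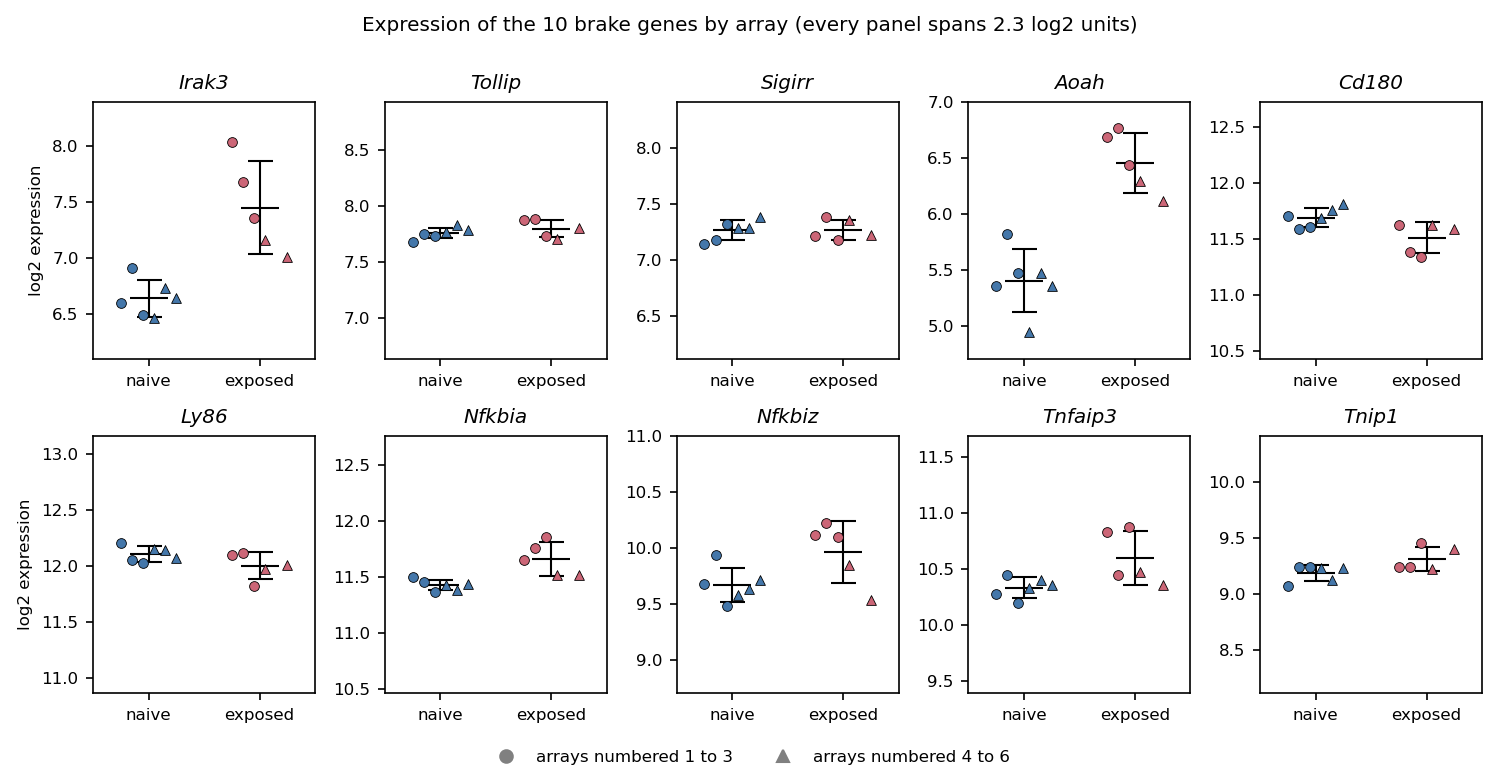
Log2 expression of the 10 brake genes on each array, with the naive arrays in blue on the left and the exposed arrays in red on the right of each panel. Circles are arrays numbered 1 to 3 and triangles arrays numbered 4 to 6, bars are the mean ± SD (n = 6 and n = 5), and every panel spans the same range of log2 values. The groups do not overlap for Irak3, Aoah and Nfkbia.

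Irak3 encodes IRAK-M, a member of the IRAK family that holds back the active kinases at the receptor. Its log2 values were 6.46 at the lowest, 6.62 at the median and 6.91 at the highest of the 6 naive arrays (probeset 17245399). The exposed arrays gave 8.03, 7.68, 7.36, 7.16 and 7.01. Every exposed array lay above every naive array, and the 5 exposed arrays spread over about 1 log2 unit. Naive cells averaged 6.64 ± 0.17 (SD, n = 6) and exposed cells 7.45 ± 0.41 (SD, n = 5), and the difference was 0.81 ± 0.16 (SE). The difference stayed between 0.66 and 0.92 with any 1 array left out, but Irak3 was no longer called without naive array 1, 3, 4, 5 or 6 or without exposed array 2.

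Aoah encodes acyloxyacyl hydrolase, an enzyme that removes fatty acyl chains from lipopolysaccharide so that it no longer stimulates. Its log2 values ran from 4.94 over a median of 5.41 to 5.82 in naive cells (probeset 17285586). In exposed cells they were 6.68, 6.76, 6.43, 6.29 and 6.11. Again no exposed array reached down to the naive values. On 5 of the 6 naive arrays Aoah lay below 5.60, the 95th percentile of the mean log2 levels of olfactory receptor genes, a mark for dim signals. No exposed array did. The difference was 1.05 ± 0.14 (SE; 5.40 ± 0.28 against 6.45 ± 0.27, SD), and Aoah was called with any 1 array left out.

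Markers of red pulp macrophages, which take up old red cells in the spleen, were on average highest on exposed arrays 1 and 2. Of 11 such markers 10 were higher in exposed cells and 0 were called. Their mean log2 level was 8.07 to 9.35 on naive arrays and 8.73 to 8.93 on exposed arrays 3, 4 and 6, but 10.86 on exposed array 1 and 9.87 on exposed array 2. None of the 11 was dim on all arrays. Mean levels of 7 monocyte markers were 8.50 and 8.37 on those arrays and between 7.60 and 7.98 on all others. Exposed arrays 1 and 2 were also the ones with the highest Irak3 and Aoah values. On the other 3 exposed arrays, where the macrophage markers lay within the naive range, both genes still lay above all naive arrays. Without exposed arrays 1 and 2 the difference was 0.54 for Irak3, which was then not called, and 0.87 for Aoah, which was, where 0.446% of all genes were called. With the macrophage marker mean as a covariate the differences were 0.51 and 0.87, and both were called, where 212 of all 22180 genes were. In such bulk samples, more cells of a type and more RNA per cell cannot be told apart.

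**Figure D2:**
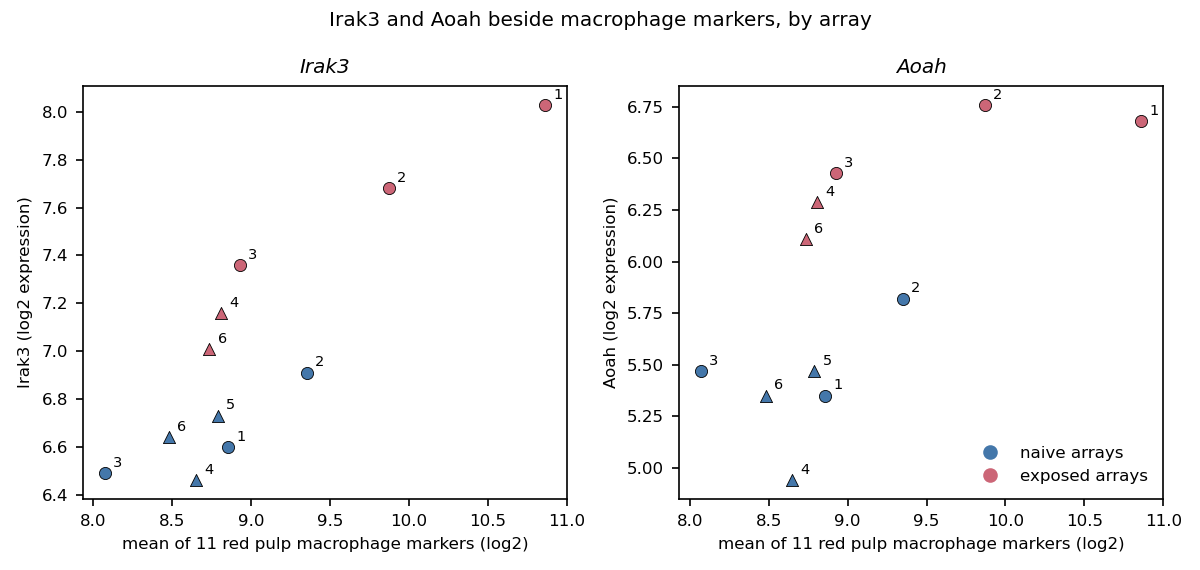
Log2 expression of Irak3 (left) and Aoah (right) against the mean log2 level of 11 red pulp macrophage markers on each of the 11 arrays, labelled by array number, with circles for arrays 1 to 3 and triangles for 4 to 6. Exposed arrays 1 and 2 lie to the right of all others, and exposed arrays 3, 4 and 6 lie above naive arrays of like marker level.

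The other brakes at the receptor gave small differences. Tollip, an adaptor that binds IRAK1 and keeps it inactive, was at 7.68 to 7.83 in naive and 7.70 to 7.88 in exposed cells (difference 0.04, 95% limits -0.07 to 0.15). Its difference was negative within arrays 4 to 6 (-0.04), without exposed arrays 1 and 2 (-0.01) and, at -0.0004, with the macrophage marker mean as a covariate. Sigirr, a receptor whose Toll/IL-1 domain interferes with signalling, had means of 7.26 ± 0.09 in both groups (difference 0.0002, 95% limits -0.13 to 0.13). The naive and exposed values of both genes overlapped, and these intervals leave room for changes of up to 0.15 log2 units.

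Cd180 (RP105) is a relative of Tlr4 that lacks the signalling domain, and Ly86 (MD-1) is the partner it needs at the cell surface. Cd180 ran from 11.59 over 11.70 to 11.82 on naive arrays and was at 11.63, 11.39, 11.34, 11.63 and 11.59 on exposed arrays, with a difference of -0.18 ± 0.06 (SE). Exposed arrays 2 and 3 lay below all naive arrays and the other 3 lay among them. Ly86 ran from 12.02 over 12.11 to 12.20 on naive arrays and was at 12.10, 12.11, 11.82, 11.97 and 12.01 on exposed arrays, a difference of -0.10 ± 0.06 (SE). For Ly86 the lowest arrays were exposed arrays 3, 4 and 6. Neither gene was called between exposed and naive cells in any fit run. Both genes are also expressed by B cells. The mean level of 10 B cell markers was 6.84 to 7.07 in naive and 6.80 to 7.12 in exposed cells. With this mean as a covariate the differences of Cd180 and Ly86 were -0.18 and -0.10. The mean does not stand for every marker. Of the 10, 6 were higher, among them Cd79a (0.36) and Cd79b (0.29), others such as Blk (-0.35) and Cr2 (-0.34) were lower, and 0 were called. Markers of dendritic cell subsets were not all alike in the groups. The mean of 5 pan-dendritic markers was 11.82 to 11.92 in naive and 11.73 to 11.89 in exposed cells. That of 7 type 2 conventional dendritic cell markers was 9.38 to 9.58 and 9.14 to 9.37, so lower on every exposed array. Of the 7, 2 fell, Cd209a by 1.02 and Clec4a4 by 0.43 (limma adjusted p = 0.00345 and 0.0250). Not all went down: Sirpa (0.06) and Clec10a (0.27, dim on all arrays) had positive differences, and Esam was at -0.09. The mean of 6 plasmacytoid dendritic cell markers was 7.26 to 7.56 and 7.51 to 7.78, above all naive arrays on 4 of 5 exposed arrays, with 0 called. Only 3 of the 6 were higher, Klk1 (0.80), Spib (0.37) and Cox6a2 (0.11). Siglech (-0.10), Ccr9 (-0.01) and Tcf4 (-0.02) were not. The part of these subset markers in the differences of the 10 genes was not tested.

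Nfkbia encodes IkBα, which keeps NF-kB in the cytoplasm and is itself induced by NF-kB. Its naive values lay close together, from 11.37 over 11.44 to 11.50 (probeset 17281219). Its exposed values were 11.66, 11.76, 11.86, 11.52 and 11.52, all above the naive arrays, though exposed arrays 4 and 6 by a narrow margin. The difference of 0.23 ± 0.06 (SE) was not called. It was called with the number set of the arrays as a block, a fit that called 2.78% of all genes, and without exposed array 6. The groups did not overlap for 3 of the 10 genes, Irak3, Aoah and Nfkbia, where this was so for 2.29% of all genes.

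Nfkbiz encodes IkBζ, a nuclear IkB protein that restrains NF-kB at some genes and is needed for the induction of others, Il6 among them. It ran from 9.48 over 9.65 to 9.94 in naive cells and was at 10.11, 10.22, 10.10, 9.85 and 9.53 in exposed cells. Exposed arrays 1 to 3 lay above all naive arrays, while exposed arrays 4 and 6 lay within them. The difference was 0.29 ± 0.11 (SE), and it was called only without exposed array 6, at 0.40.

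Tnfaip3 encodes A20, which edits ubiquitin chains on signalling proteins and so ends NF-kB activation, and Tnip1 encodes ABIN1, which binds ubiquitin and A20. Tnfaip3 was at 10.20, 10.34 and 10.45 (lowest, median and highest) in naive cells and at 10.83, 10.45, 10.88, 10.47 and 10.36 in exposed cells. Its difference of 0.26 ± 0.09 (SE) came mostly from exposed arrays 1 and 3. Tnip1 was at 9.07, 9.23 and 9.24 in naive cells and at 9.24, 9.24, 9.45, 9.22 and 9.40 in exposed cells, and its difference of 0.12 ± 0.06 (SE) came mostly from exposed arrays 3 and 6. Neither was called in any fit run.

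Arrays numbered 1 to 3 and arrays numbered 4 to 6 stand apart in these data for reasons the labels do not give, and this contrast played no part in listing the genes. Each set holds 3 naive arrays, with 3 exposed arrays in the first and 2 in the second. With group in the limma fit, 0 of the 10 genes differed between the number sets after Benjamini-Hochberg adjustment, where 3.3% of all genes did. At an unadjusted p under 0.05 there were 5 (Aoah, Cd180, Irak3, Nfkbia and Nfkbiz), where 4316 of all 22180 genes were. The differences of these 5, arrays 4 to 6 minus arrays 1 to 3, ran from -0.35 for Aoah to 0.14 for Cd180. After median centring of the arrays Cd180 passed, where 1521 of all 22180 genes did.

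The difference between exposed and naive cells was not alike in the number sets for some of the genes. Irak3 was 1.02 higher in the first set and 0.47 in the second, Nfkbiz 0.45 and 0.05, Tnfaip3 0.41 and 0.05, and Nfkbia 0.31 and 0.10. Aoah was 1.07 and 0.95 higher, and Tnip1 was 0.13 and 0.12 higher. The limma interaction between group and number set was below an unadjusted p of 0.05 for 4 of the 10 genes, Irak3 (-0.55), Tnfaip3 (-0.36), Nfkbia (-0.22) and Nfkbiz (-0.39), where 4.25% of all genes were. The values are the log2 difference in arrays 4 to 6 minus that in arrays 1 to 3. After Benjamini-Hochberg adjustment 0 of the 10 passed, as did 0 of all genes (adjusted p = 0.992 for each of the 4). The 4 became 1 without naive array 1, naive array 5 or exposed array 4, and 0 without naive array 3, naive array 6 or exposed array 6. They were 3 without naive array 4, 2 without exposed array 1, 2 or 3, 2 after quantile normalisation or without the variance trend, and 0 after a shift of all arrays to a common 75th percentile. An unequal difference in the number sets was not established for any of the 10 genes.

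**Figure D3:**
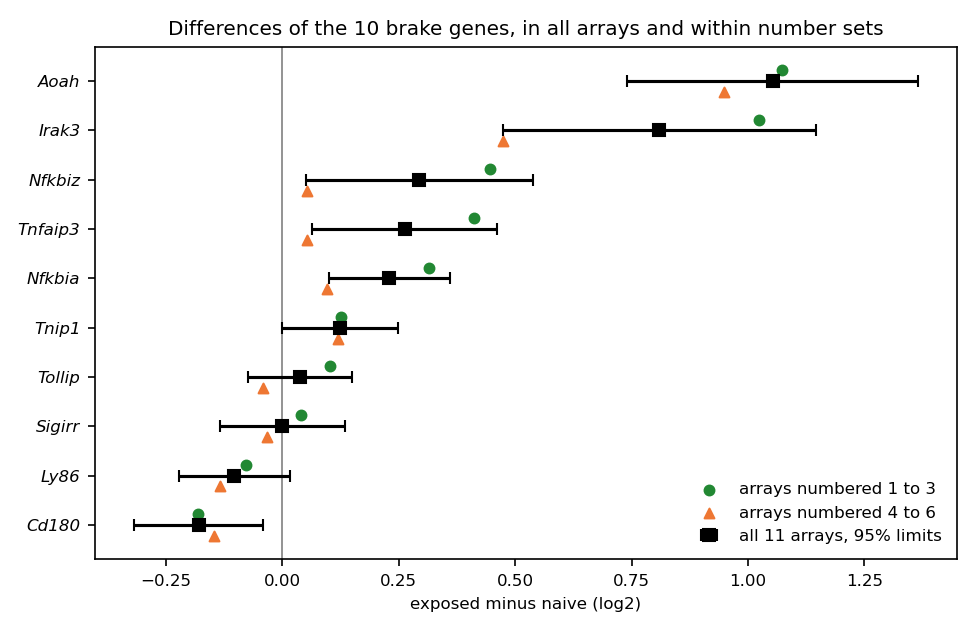
Exposed minus naive log2 difference of each brake gene in all 11 arrays (black squares with 95% limits), in arrays 1 to 3 (green circles) and in arrays 4 to 6 (orange triangles). Aoah lies near 1 in both number sets, while Irak3, Nfkbiz, Tnfaip3 and Nfkbia lie further right in arrays 1 to 3.

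How the genes vary together apart from group was followed by removing the mean of each group within each number set. Over the 11 arrays, Pearson's r for the 45 pairs of genes ran from -0.77 (Ly86 and Tnip1) to 0.74 (Irak3 and Aoah). Removing 4 means leaves 7 degrees of freedom, and the residuals of exposed arrays 4 and 6 mirror each other, while the permutations treat the 11 residuals as exchangeable, so their p-values are too small. For Irak3 and Aoah, Spearman's rho was 0.75 (permutation p = 0.011) beside the Pearson value (permutation p = 0.009; adjusted over the 45 pairs, p = 0.203), and r was 0.87 without the 2 arrays farthest from the median of Irak3. Ly86 and Tnip1 had a rho of -0.66 (permutation p = 0.031) and a permutation p of 0.0044 for r (adjusted p = 0.198), and r was -0.55 without the 2 farthest arrays. The receptor and its partner, Cd180 and Ly86, had an r of 0.51 (permutation p = 0.114, adjusted p = 0.341) and a rho of 0.35 (permutation p = 0.300). Their r was -0.01 without the 2 farthest arrays. With 1 array left out it ran from 0.13 (without exposed array 3) to 0.76 (without exposed array 2). No relation was thus established for this pair. In all 0 pairs passed after adjustment and 6 had an unadjusted p under 0.05. Among all genes, the residuals of Gm6548, Arsg and Tpbgl were most like those of Irak3 (r = 0.98 each), and those of Foxk1, Catsperz and Vmn1r50 most like those of Aoah (r = 0.96, 0.96 and 0.95). These are the highest of 22180 values over 11 arrays, and the mean levels of Arsg, Tpbgl, Catsperz and Vmn1r50 (5.01, 5.59, 4.86 and 3.27) lie below the dim mark of 5.60.

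Other genes of the pathway, from lists not chosen for how they moved here but drawn up with earlier results known, were read beside the brakes. Of 90 measured genes outside the 10, 6 rose and 0 fell, where 1.42% of all genes were called, and 39 of the 90 differences were negative. With the number set as a block, 8 rose and 2 fell, where 2.78% of all genes were called. Among 23 other brakes 0 were called, and 2 fell with the number set as a block, Cyld and Inpp5d. The largest difference was that of Tnip3 (ABIN3), a relative of Tnip1, at 0.41 ± 0.12 (SE; limma adjusted p = 0.124). Cyld, a deubiquitinase that ends NF-kB activation, had a difference of -0.24 ± 0.06 (SE; limma adjusted p = 0.0505, and 0.0238 with the block), and its exposed values were all below its naive values. Inpp5d, which encodes the inositol phosphatase SHIP1, had a difference of -0.18 ± 0.07 (SE; limma adjusted p = 0.262, and 0.0395 with the block). Cyld and Inpp5d were named after their values were seen. Of 4 other IkB proteins 0 were called, and Bcl3 had the largest difference, 0.39 ± 0.11 (SE; limma adjusted p = 0.103). With the number set as a block Bcl3 was called, at 0.37 (limma adjusted p = 0.0397). The 18 Toll-like receptors and partners also gave 0 calls, with Tlr8 at 0.48 ± 0.20 (SE; adjusted p = 0.345).

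Of 4 NF-kB subunits, Relb, which pairs with p52 in the alternative route, rose 1.19-fold. It averaged 10.42 ± 0.05 in naive and 10.67 ± 0.08 in exposed cells (SD; limma adjusted p = 0.0194). Of 23 adaptors and kinases, Ikbke rose and 0 fell. Irak2, a kinase of the IRAK family named after its value was seen, was below all naive arrays on every exposed array without being called (-0.21 ± 0.06, SE; limma adjusted p = 0.114). Ikbke encodes IKKε, an inducible kinase of the IkB kinase family, and it went from 5.75 ± 0.08 to 6.61 ± 0.27, a 1.81-fold rise (limma adjusted p = 0.00305). Neither gene had an exposed value within its naive range. Of 18 NF-kB target genes 4 rose and 0 fell, with a median difference of 0.24: Il6 by 1.62, Il12b by 0.81, the chemokine gene Cxcl10 by 0.80 and, named after its value was seen, the interleukin 1 receptor antagonist Il1rn by 0.61 (limma adjusted p = 0.00345, 0.0300, 0.0300 and 0.0291). In arrays 1 to 3 and arrays 4 to 6, Il6 was 1.89 and 1.23 higher and Il12b 1.00 and 0.53. Cxcl10 was 1.07 and 0.43 higher, and Il1rn 0.64 and 0.54. The limma interaction between group and number set had an unadjusted p under 0.05 for 4 of the 18 targets, Cxcl10 among them. This was so for 4.25% of all genes, and 0 targets passed after adjustment. Ikbke and Il6 were called with any 1 array left out. With the macrophage marker mean as a covariate Ikbke and Il6 were called, while Relb, Il12b and Cxcl10 were not. Relb was also not called without naive array 5 or exposed array 2, after the shift to a common 75th percentile, or with the replicate number of either label as a block, and Il12b and Cxcl10 were called in 3 and 4 of the 11 fits with 1 array left out. Without exposed arrays 1 and 2, Ikbke (0.86) and Il6 (1.42) were called and Relb, Il12b, Cxcl10 and Il1rn were not. Il1rn was also not called without naive array 5, but was called with the number set as a block (limma adjusted p = 0.0201). The call of Il1rn was not followed with a marker covariate or with each of the other arrays left out. The count of 6 fell to 2 without naive array 5, to 3 without naive array 1, 3 or 6 or exposed array 2, and rose to 10 without exposed array 6.

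**Figure D4:**
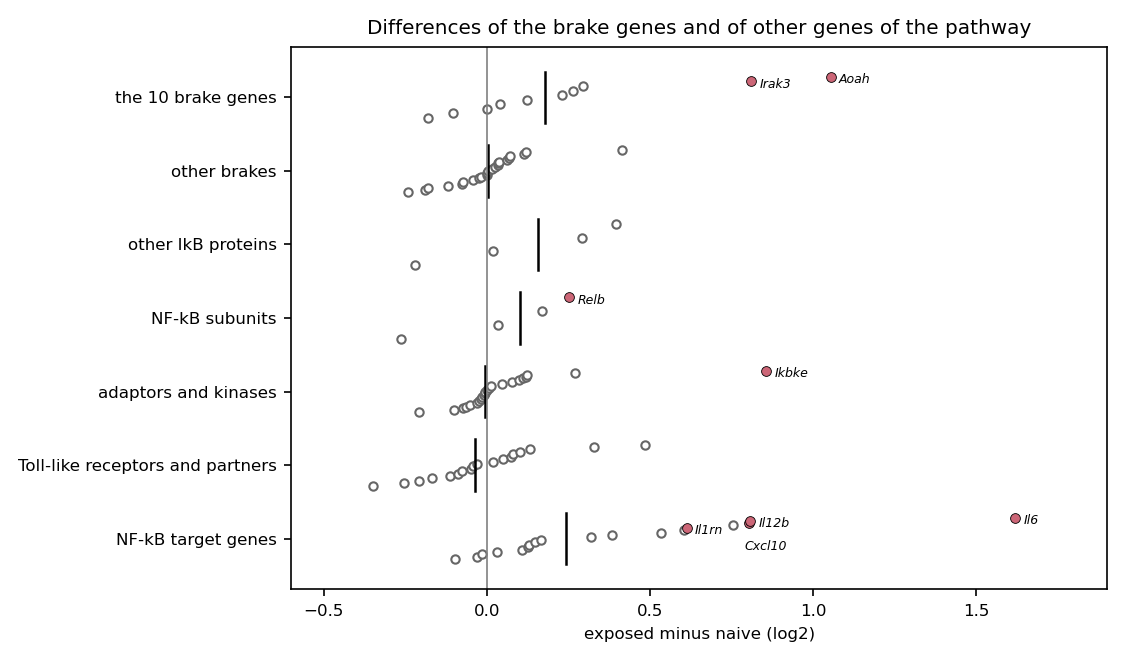
Exposed minus naive log2 difference of each of the 10 brake genes (top row) and of 90 other genes of the pathway in 6 lists, 1 point a gene. Filled, named points passed an adjusted p under 0.05 over all 22180 genes, and vertical bars are the median of each list. Irak3 and Aoah lie at 0.81 and 1.05, near Ikbke at 0.86 and left of Il6 at 1.62.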

How the data were processed

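The deposited values are log2 expression, made by the authors with RMA per the submitters' processing notes; the RMA version and genome build are not given in the sources used here. Of 41801 probesets 34472 hold values. A given probe table names 1 gene for 23521 of them, and the brightest probeset of each gene over all arrays was tested (22180 genes, no dim filter). Array medians lay between 5.91 and 6.01 over these genes, and the correlation between arrays was at least 0.990. For arrays, their number limits the precision.

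Differences are exposed minus naive from limma 3.58.1 (lmFit, eBayes with trend) in R 4.3.3, checked on simulated data. SE is moderated, and called means a Benjamini-Hochberg adjusted p under 0.05. Member correlations used 100000 permutations. The members, lists and tests were chosen with earlier results of these data known. Named were all members, up to 3 called genes per list and direction, or the largest difference where none was called, and for called members the 3 genes most like them. Alternatives were no trend, robust fitting, 3 rescalings, a dim filter, probeset means, blocks by array number or number set, each set alone, 2 marker covariates and each array left out; leaving out exposed arrays 1 and 2 was chosen after seeing the data. The numbers of the labels (the last exposed array is 6 in its title and 5 elsewhere) were not used to pair arrays: same-numbered arrays correlated between 0.088 and 0.231 after group means were removed.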

Additional observations from a re-analysis of the deposited data

How the results depend on the processing

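Of the 10 brake genes, 2 were called, and 0 in arrays 1 to 3 alone, 0 in arrays 4 to 6 alone, 1 to 4 with 1 array left out and 1 without exposed arrays 1 and 2. Of the 90 other pathway genes, 6 were called, against 10 with the number set as a block (8 higher, 2 lower), 1 in arrays 1 to 3 alone, 0 in arrays 4 to 6 alone, 3 with the macrophage marker mean as a covariate, 2 to 10 with 1 array left out and 2 without exposed arrays 1 and 2. With the title's number as a replicate block 2 brake genes and 4 pathway genes were called, and with the characteristic's number 2 and 3. For 2 of 5 exposed arrays, the same-numbered naive array was the closest. Between number sets, 1 brake gene passed after median centring, where 1521 of all 22180 genes did, and 0 otherwise. Of the correlated pairs 0 to 1 passed with 1 array left out; leaving out exposed array 4 or 6 leaves the other at a residual of 0, so these fits are the same. The cause of these changes was not tested; fits on 1 number set also use fewer arrays. All genes called numbered 316, against 617 with the number set as a block. With the title's number as a block they were 341, and with the characteristic's number 182. As a covariate, the B cell marker mean gave 474 and the macrophage marker mean 212. There were 11 and 5 in each number set alone, 104 to 395 with 1 array left out and 99 without exposed arrays 1 and 2. Of the member differences, none that was called changed sign. Signal limits Aoah, which was dim on most naive arrays.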
